A study of Homo sapiens with 10 samples.

Results

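The genes described here encode 9 chains of laminin, namely the alpha chains LAMA1, LAMA2, LAMA3, LAMA4 and LAMA5, the beta chains LAMB1, LAMB2 and LAMB3 and the gamma chain LAMC1. They were taken by symbol from a read-count table of 22626 rows, and all 9 had a row. RNA was sequenced from ARPE-19 cells, an established human line derived from retinal pigment epithelium (RPE), after 48 h in medium with D-glucose at 5.5 mM plus mannitol at 32 mM (the control group, 5 libraries) or with D-glucose at 37.5 mM (high glucose or HG, 5 libraries). Mannitol is a sugar alcohol added to match the number of dissolved molecules, and both groups shared the same basal medium with serum. The study used this HG condition as a cell model of diabetes. The labels do not say that the libraries of a group came from separate cultures, so p-values measure only the spread between these libraries.

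Laminins are large cross-shaped glycoproteins of basement membranes, each built from an alpha, a beta and a gamma chain that coil together before secretion. The secreted trimers join into a sheet at the cell surface, to which the collagen IV network, nidogen and perlecan are tied, while the end of the alpha chain binds integrins and dystroglycan on the cell. The RPE rests on such a basement membrane, the innermost layer of Bruch's membrane. LAMC1 is the gamma chain of most laminins, whereas LAMA3 and LAMB3 belong to the epithelial laminin that anchors hemidesmosomes.

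Total counts were between 33039260 and 45864176 in the control libraries and between 32448991 and 44400714 in the HG libraries, and 14936 rows passed the filter on low counts. Control library 2 and the library of column HG_1 stood apart from the rest, since their log2 levels, relative to the mean of all libraries, rose by 0.17 and 0.18 for every 10 points of GC content of a transcript, against slopes between -0.091 and -0.0041 in the other 8. TXNIP, a glucose-induced gene used as a check of the labels, measured 0.978 ± 0.224 CPM, the counts scaled by the TMM-normalized library size, in the control group and 8.72 ± 2.76 CPM in the HG group (SD, n = 5 each), without overlap. The defining RPE marker RPE65 had between 0 and 6 counts per library and the pigment gene TYR between 0 and 34, whereas the retinaldehyde carrier RLBP1 had between 245 and 572. BEST1, another RPE marker, ranged from 24 to 18223 counts and was uneven within the control group.

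The sequences just before the transcription starts show what lies upstream of the chain that fell most in HG (LAMA5), a strongly expressed beta chain that fell (LAMB1), the chain that rose (LAMB3) and its partner LAMA3. They are 250 bases before a RefSeq start in GRCh38.p14, written 5' to 3' on the strand of the gene, and RefSeq windows were matched for 8 of the 9 chains. Capitals mark matches, on either strand, to the AP-1 motif TGANTCA, the GC box GGGCGG or the CAAT box CCAAT. The window of LAMA5 is chr20:62367313-62367562 on the minus strand, that of LAMB1 is chr7:108003162-108003411 on the minus strand, that of LAMB3 is chr1:209651375-209651624 on the minus strand and that of LAMA3 is chr18:23872770-23873019 on the plus strand.
LAMA5: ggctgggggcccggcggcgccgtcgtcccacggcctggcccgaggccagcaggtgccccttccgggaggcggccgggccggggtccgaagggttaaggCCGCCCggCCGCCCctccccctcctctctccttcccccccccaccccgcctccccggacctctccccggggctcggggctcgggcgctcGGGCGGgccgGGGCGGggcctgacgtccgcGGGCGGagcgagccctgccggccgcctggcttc
LAMB1: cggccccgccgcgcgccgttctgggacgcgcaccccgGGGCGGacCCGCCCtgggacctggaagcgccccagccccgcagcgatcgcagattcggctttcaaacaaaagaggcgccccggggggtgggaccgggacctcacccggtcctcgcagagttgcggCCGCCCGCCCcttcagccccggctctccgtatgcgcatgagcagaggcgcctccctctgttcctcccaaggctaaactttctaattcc
LAMB3: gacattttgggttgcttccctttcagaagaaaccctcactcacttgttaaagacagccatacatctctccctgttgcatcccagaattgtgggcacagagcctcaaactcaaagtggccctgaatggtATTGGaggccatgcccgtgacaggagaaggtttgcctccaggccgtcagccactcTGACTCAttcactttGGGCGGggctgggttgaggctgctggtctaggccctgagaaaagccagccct
LAMA3: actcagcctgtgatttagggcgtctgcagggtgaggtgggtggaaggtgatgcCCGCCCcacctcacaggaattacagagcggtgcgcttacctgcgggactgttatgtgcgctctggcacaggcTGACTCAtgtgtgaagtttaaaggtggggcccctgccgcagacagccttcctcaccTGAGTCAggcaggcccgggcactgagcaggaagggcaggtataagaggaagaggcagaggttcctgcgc
The window of LAMA5 held 5 GC boxes and that of LAMB1 held 4, of which a pair overlap, and the GC box was present in 42.6% of all 35116 RefSeq windows of this length. The LAMB3 window printed is at the innermost of its 3 RefSeq starts and lies inside the gene as GENCODE draws it. It held 1 AP-1 motif 67 bases before the start, besides 1 GC box and 1 CAAT box. The other LAMB3 windows, which overlap and are not printed, held a GC box and no AP-1 motif. The LAMA3 window also lies inside the gene as GENCODE draws it and held AP-1 motifs that begin 125 and 69 bases before the start. AP-1 motifs were present in 6.57% of all windows and CAAT boxes in 32.0%. These are shares for 1 window, whereas LAMB3 had 3. LAMC1 had 3 GC boxes and LAMB2 had 1, whereas the LAMA4 and LAMA2 windows held none of the motifs searched. The E-box CACGTG, the TATA box TATAAA and TGGAAA, the core letters of the site of the osmotic factor NFAT5, were in none of the laminin windows, and were in 6.34%, 10.7% and 18.0% of all windows. These matches are letters only, and no binding was measured.

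Of the 9 laminin chains, 8 passed the filter on low counts, and 6 of these 8 passed the test, 5 lower and 1 higher in HG (edgeR quasi-likelihood test, adjusted p below 0.05 over all rows). LAMA5 fell by 35.7%, LAMB2 fell by 24.1%, LAMB1 fell by 22.6%, LAMC1 fell by 21.97% and LAMA4 fell by 14.6%. LAMB3 rose by 47.2%. LAMA3 and LAMA2 did not pass. Among all 14936 rows tested, 15.4% passed, 7.8% lower and 7.62% higher. The median log2 fold change of the 8 chains was -0.30, against 0.0013 for all rows tested, whose quartiles were -0.15 and 0.15. LAMA5 was the chain whose fold change also exceeded 1.5, and 3.69% of all rows were called with such a fold change. After correction for GC content and length, with log2 fold changes of -0.49 for LAMA5 and 0.60 for LAMB3, it was LAMB3 that exceeded 1.5. In 4 of the 8 chains the HG libraries did not overlap with the control libraries, against 13.6% of all rows. With CPM scaled by the plain library totals, 3 chains did not overlap, against 13.7% of all rows, and LAMC1 was the chain that differed. The summed level of the 9 chains was between 1606 and 1866 CPM in the control group and between 1351 and 1440 CPM in the HG group. In RNA from whole cultures, fewer cells that express a chain and less of its RNA in each cell cannot be told apart.

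**Figure D1:**
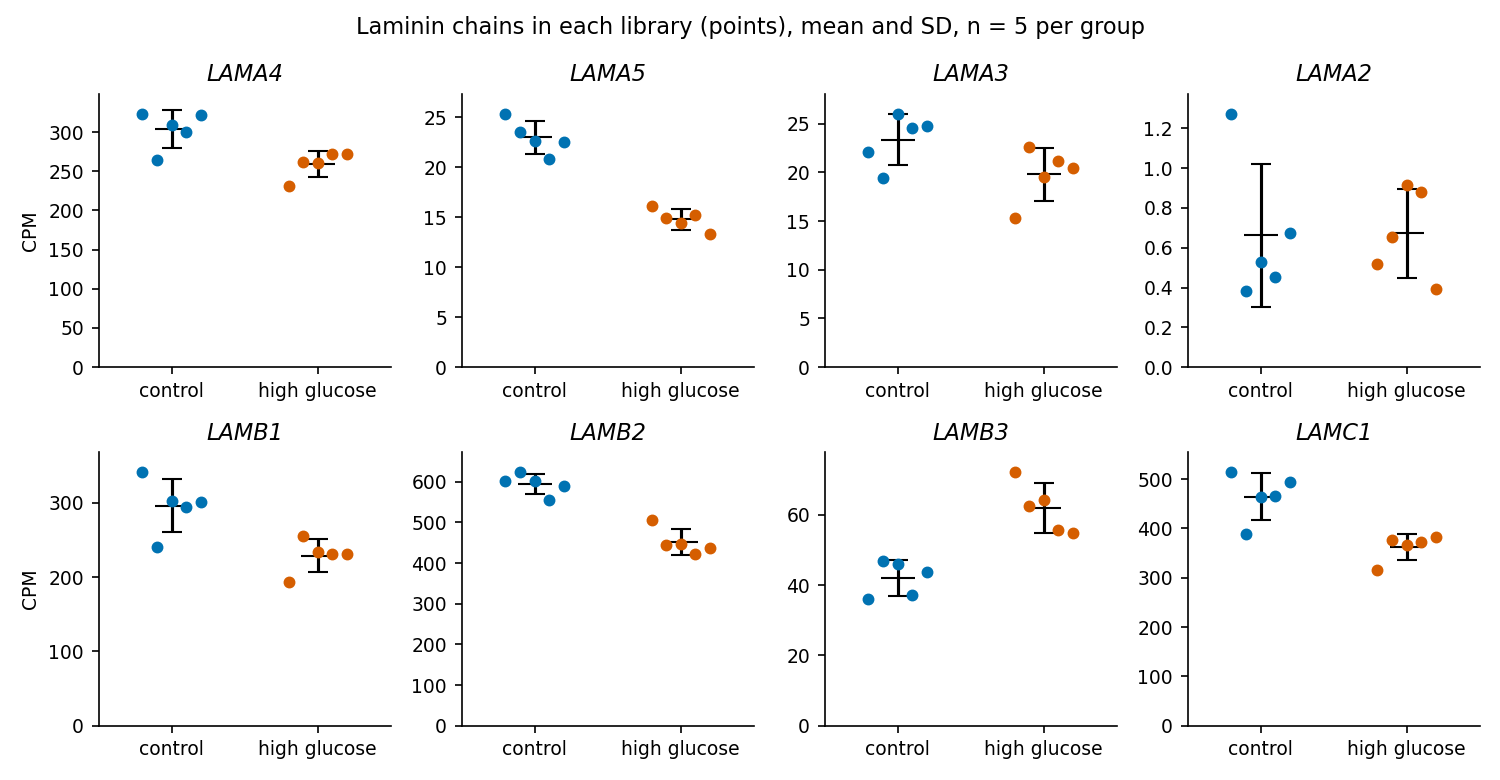
Level of each tested laminin chain in CPM (vertical axes from 0) in the 5 control and 5 HG libraries, ordered by replicate or column number from left to right within a group. Points are libraries and black bars the mean ± SD. The groups separate for LAMA5, LAMB2, LAMB3 and LAMC1 and share part of their range for LAMA4, LAMA3, LAMA2 and LAMB1.

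**Figure D2:**
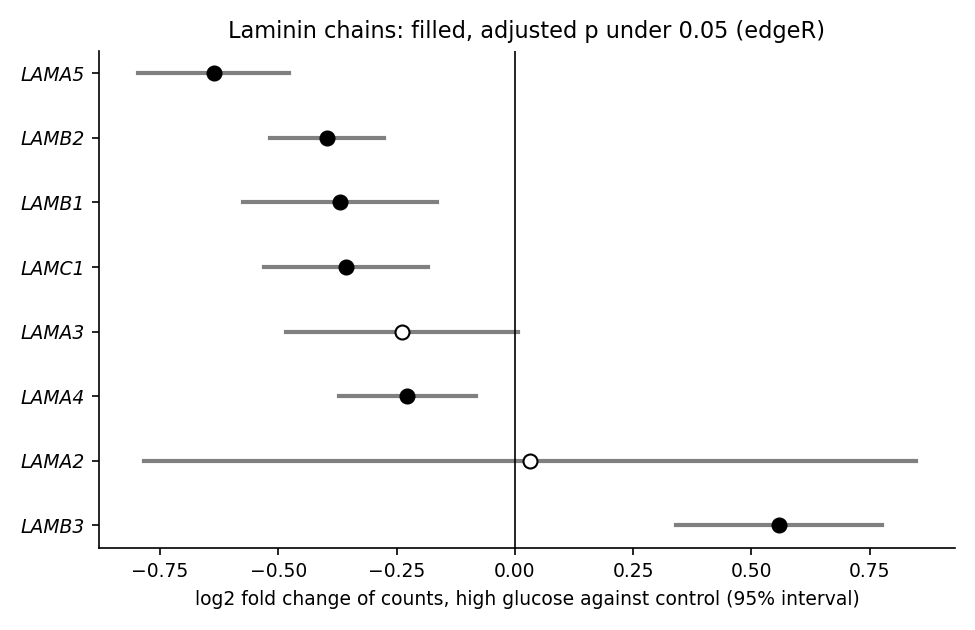
Log2 fold change of HG against control for the 8 tested chains (horizontal axis) with 95% intervals, filled where the adjusted p was below 0.05. LAMB3 at 0.56 stands to the right of 0, LAMA5 at -0.64 is the farthest to the left, and the intervals of LAMA3 and LAMA2 include 0.

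LAMA5 encodes the alpha chain of widespread epithelial and vascular basement membranes (GENCODE, GRCh38 chr20:62307955-62367312, minus strand). In control libraries 1 to 5 it measured 25.3, 23.6, 22.6, 20.9 and 22.5 CPM, and in HG_1 to HG_5 16.1, 14.9, 14.4, 15.2 and 13.3 CPM. Every HG library was below every control library. The log2 fold change was -0.64 (SE 0.0724, 95% interval -0.80 to -0.48, adjusted p = 0.000304, edgeR), and the two-sided exact permutation test gave p = 0.00794, the smallest that the arrangements of 10 libraries allow. After correction for GC content and length it was -0.49. ADRM1, a proteasome gene that overlaps LAMA5 on the opposite strand, was at -0.09 on the log2 scale (adjusted p = 0.654, edgeR). Whether the counting used strand is not given in the sources used here.

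LAMA4 encodes a short alpha chain known from vessels, muscle and mesenchymal tissues (chr6:112108760-112254939, minus strand). It measured 323.3, 263.8, 308.7, 300.03 and 322.0 CPM in the control libraries and 230.6, 261.9, 260.7, 271.7 and 272.0 CPM in the HG libraries. Control library 2 lay inside the HG range, and the other 4 control libraries were above all of it. The log2 fold change was -0.23 (SE 0.0658, 95% interval -0.37 to -0.08, adjusted p = 0.0402, edgeR, exact permutation p = 0.0238). The call was lost on leaving out any library other than control library 2, with adjusted p up to 0.0988, and held without control library 2 and HG_1 together (log2 fold change -0.23, adjusted p = 0.000987, edgeR).

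LAMA3, the alpha chain of the hemidesmosomal laminin (chr18:23689443-23956222, plus strand), measured 22.1, 19.5, 26.0, 24.5 and 24.8 CPM in the control libraries. In the HG libraries it measured 15.3, 22.6, 19.5, 21.2 and 20.4 CPM. The groups overlapped, and control library 2 and HG_1 held the lowest value of their groups. Its log2 fold change was -0.24 (95% interval -0.48 to 0.01, adjusted p = 0.186, edgeR, exact permutation p = 0.0873). Without those libraries it was -0.22 (adjusted p = 0.0419, edgeR).

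LAMA2, the alpha chain of muscle and nerve basement membranes (chr6:128883141-129516569, plus strand), was between 0.381 and 1.27 CPM in the control group and between 0.395 and 0.914 CPM in the HG group. Its log2 fold change was 0.03 (95% interval -0.78 to 0.85, adjusted p = 0.968, edgeR), a wide interval that holds changes in either direction. LAMA1, the alpha chain of early embryonic basement membranes (chr18:6941744-7117814, minus strand), had 10 counts in control library 3 and 0 in the other 9 libraries. A count of 0 allows up to 3 counts, or between 0.0669 and 0.0912 CPM depending on the library. These limits cover counting error only.

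LAMB2, known as the beta chain of neuromuscular synapses, kidney glomeruli and the retina (chr3:49121114-49133118, minus strand), measured 602.2, 623.1, 602.4, 554.2 and 590.6 CPM in the control libraries. The HG libraries measured 506.9, 445.2, 446.5, 421.0 and 436.8 CPM. The groups were apart, with HG_1 the highest HG library. The log2 fold change was -0.40 (SE 0.0549, 95% interval -0.52 to -0.28, adjusted p = 0.000932, edgeR, exact permutation p = 0.00794).

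LAMB1, the beta chain of most early and vascular laminins (chr7:107923799-108003255, minus strand), measured 341.3, 241.1, 302.1, 294.1 and 301.5 CPM in the control libraries and 193.9, 254.9, 233.4, 231.2 and 231.5 CPM in the HG libraries. Control library 2 lay below HG_2, and the other control libraries were above all HG libraries. HG against control gave a log2 fold change of -0.37 (SE 0.0928, 95% interval -0.57 to -0.17, adjusted p = 0.0213, edgeR, exact permutation p = 0.0159). The adjusted p was 0.0515 without control library 1 and 0.05003 without control library 5, just past the threshold (edgeR). DLD, an enzyme gene that overlaps LAMB1 on the opposite strand, was at 0.14 on the log2 scale (adjusted p = 0.148, edgeR).

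LAMB3, the beta chain of the hemidesmosomal laminin (chr1:209614870-209652466, minus strand), measured 36.0, 47.0, 46.1, 37.3 and 43.8 CPM in the control libraries. The HG libraries measured 72.2, 62.6, 64.3, 55.6 and 54.9 CPM. Every HG library was above every control library, in the opposite direction to LAMB1 and LAMB2. The log2 fold change was 0.56 (SE 0.0990, 95% interval 0.34 to 0.78, adjusted p = 0.00359, edgeR, exact permutation p = 0.00794).

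LAMC1, the common gamma chain (chr1:183023460-183145592, plus strand), measured 513.9, 387.8, 463.3, 465.0 and 493.6 CPM in the control libraries and 315.8, 377.3, 365.5, 372.1 and 382.4 CPM in the HG libraries. The groups were narrowly apart, since control library 2 lay just above HG_5. They overlapped with CPM scaled by the plain library totals, where the lowest control library was at 377.0 CPM and the highest HG library at 387.6 CPM. HG against control gave a log2 fold change of -0.36 (SE 0.0785, 95% interval -0.53 to -0.18, adjusted p = 0.0111, edgeR, exact permutation p = 0.00794). Outside the 9 chains, LAMB4 did not pass (log2 fold change 0.59, unadjusted p = 0.0374, adjusted p = 0.146, edgeR), and LAMC3 had between 0 and 9 counts per library.

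Most chains split by GC content in the libraries that stood apart. LAMA4, LAMA3, LAMB1 and LAMC1, whose longest transcripts hold between 46.6% and 50.7% GC, were at the lowest value of their group in control library 2 and in HG_1. LAMB2 and LAMB3, at 60.3% and 58.9% GC, were at the highest value in both. LAMA5, at 66.4% GC, was at the highest value in HG_1. LAMA2, at 46.5% GC and few counts, was at the lowest value of its group in control library 2 but not in HG_1. After correction for GC content and length, LAMB2 was at -0.34 on the log2 scale, LAMB3 0.60, LAMC1 -0.31, LAMB1 -0.35 and LAMA4 -0.21, all with adjusted p below 0.05 (edgeR).

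Levels of different chains were compared per transcript length, as the deposited FPKM values. In the control group LAMB2 was at 96.4 ± 3.31 FPKM, LAMC1 at 54.1 ± 6.13, LAMB1 at 48.1 ± 6.17 and LAMA4 at 39.9 ± 3.40 FPKM (SD, n = 5). LAMC1 and LAMB1, and LAMB1 and LAMA4, overlapped over the libraries, whereas LAMB2 was above them all. LAMB3 followed at 9.43 ± 0.915 FPKM, then LAMA3 at 2.14 ± 0.408 and LAMA5 at 1.85 ± 0.126 FPKM, which overlapped, and LAMA2 at 0.113 ± 0.0592 FPKM. The order of the means was the same in the HG group, with LAMB2 at 73.7 ± 3.77, LAMC1 at 42.6 ± 3.96, LAMB1 at 37.9 ± 4.57, LAMA4 at 34.2 ± 2.66, LAMB3 at 13.9 ± 1.11, LAMA3 at 1.89 ± 0.406, LAMA5 at 1.20 ± 0.0717 and LAMA2 at 0.104 ± 0.0524 FPKM (SD, n = 5). There LAMA3 and LAMA5 no longer overlapped. LAMA1 was listed at 0 in 9 libraries and at 0.0226 FPKM in control library 3. The ratio of counts to FPKM deviated from its mean by between -3.4% and 2.9% for LAMA4, LAMA5, LAMB1, LAMB2, LAMB3 and LAMC1. For LAMA3 it ranged from -19.3% to 6.22% and for LAMA2 from -51.9% to 53.2%, so the FPKM values of these chains were not a fixed multiple of their counts.

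**Figure D3:**
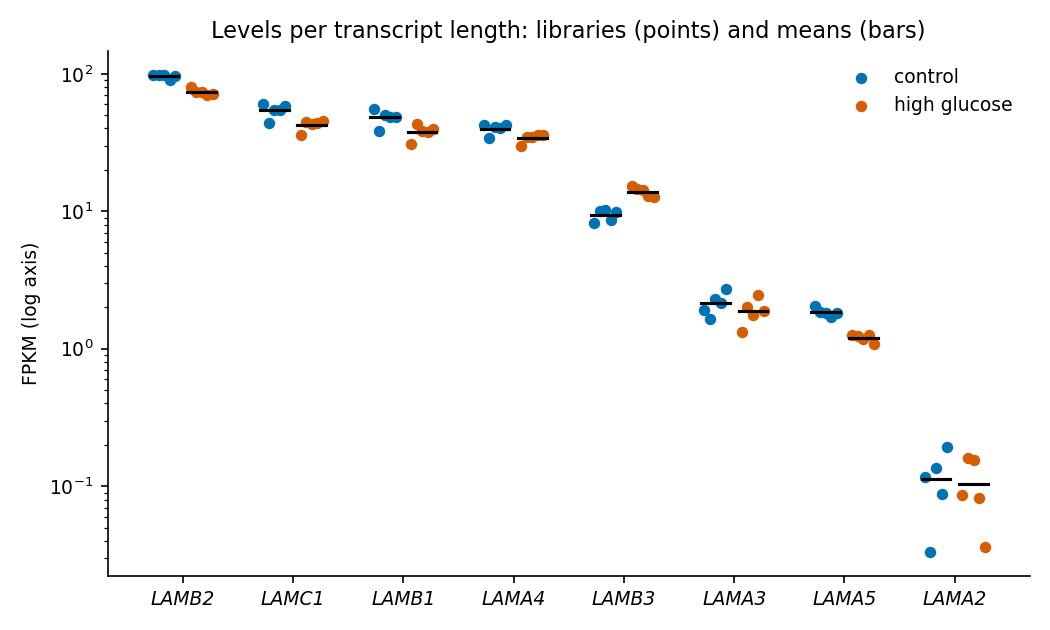
FPKM of 8 laminin chains on a log axis, ordered by their control mean, with a point for each library and a bar for the mean of each group (5 control, 5 HG). LAMB2 leads in both groups, LAMC1, LAMB1 and LAMA4 lie close together, and LAMA1, listed at 0 in 9 libraries, is not drawn.

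The make-up of the beta chains moved toward LAMB3, described here without a test. Of the summed FPKM of LAMB1, LAMB2 and LAMB3, LAMB3 took 6.14 ± 0.676% in the control group and 11.1 ± 0.716% in the HG group (SD, n = 5), with ranges of 5.09 to 6.84% and 10.2 to 12.1% that were apart. LAMB2 took 62.7 ± 2.59% and 58.7 ± 2.77%, and LAMB1 took 31.2 ± 3.12% and 30.2 ± 3.34%, both with overlapping ranges. For every 100 FPKM of LAMB1 there were 20.02 ± 4.203 of LAMB3 in the control group and 37.3 ± 7.13 in the HG group (SD, n = 5), also apart. Among the alpha chains LAMA4 took 90.7 ± 0.495% and 91.5 ± 0.683%. LAMA5 took 4.23 ± 0.454% in the control group and 3.23 ± 0.407% in the HG group, where the ranges just overlapped. LAMA3 took 4.85 ± 0.641% and 5.00 ± 0.756% (SD, n = 5 each). The summed beta chains were 2.87 ± 0.279 times LAMC1 in the control group and 2.97 ± 0.326 times in the HG group (SD, n = 5). The summed alpha chains were 0.816 ± 0.0317 times LAMC1 in the control group and 0.879 ± 0.0237 times in the HG group (SD, n = 5). The ranges of this alpha ratio just overlapped. FPKM shares are of RNA and not of assembled trimers.

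**Figure D4:**
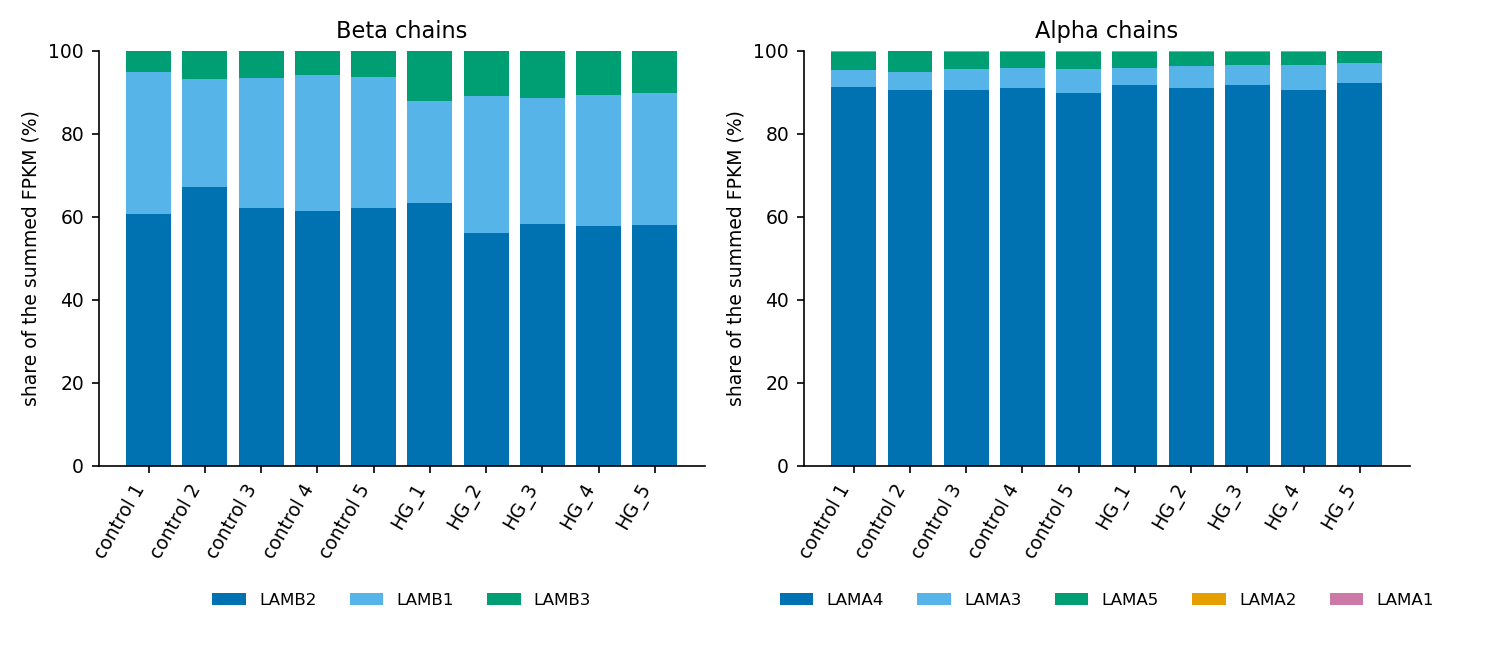
Stacked share (%, from 0 to 100) of each chain in the summed FPKM of the beta chains (left) and alpha chains (right) in each of the 10 libraries. The LAMB3 segment spans 5.09 to 6.84% in the control libraries and 10.2 to 12.1% in the HG libraries, and LAMA4 makes up most of the alpha chains throughout.

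Genes that work with laminins were read from lists of receptors, basement membrane partners, dystroglycan sugar enzymes, proteases and hemidesmosome proteins. Of 18 tested basement membrane partners, 10 fell, against 7.8% of all rows, and the other 8 did not pass, with a median log2 fold change of -0.52. The collagen IV chains COL4A1 (-1.01), COL4A2 (-0.81) and COL4A4 (-0.79), nidogen NID1 (-0.74), perlecan HSPG2 (-0.66), fibulin FBLN2 (-0.75) and SPARC (-0.62), a collagen-binding glycoprotein, were among the genes that fell (log2 fold changes, edgeR). Whether they differ from the laminin chains was not tested.

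Of 15 laminin receptors, 6 fell and 1 rose, where 7.8% and 7.62% of all rows did, with a median of -0.22. ITGB4, the hemidesmosomal integrin chain, fell from 21.99 ± 1.002 to 9.98 ± 1.83 CPM (SD, n = 5 each, log2 fold change -1.14, adjusted p = 0.000171, edgeR). BCAM, a receptor of LAMA5-containing laminins, had -0.59, MCAM, which binds LAMA4-containing laminins, had -0.51, and the proteoglycan SDC2 had -0.32, all of them called. ITGA3, an integrin chain for the laminins of LAMA3 and LAMA5, was the receptor that rose, with a log2 fold change of 0.19 (adjusted p = 0.0247, edgeR). Dystroglycan DAG1 (-0.18, adjusted p = 0.0566), ITGA6 (0.01, adjusted p = 0.959) and ITGB1 (-0.02, adjusted p = 0.934) did not pass (edgeR).

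Of 17 tested enzymes that build the laminin-binding sugar of dystroglycan, 1 fell and 3 rose, against 15.4% of all rows, with a median log2 fold change of 0.03. The number that passed was 1 without control library 5, 7 without HG_1 and 9 after correction for GC content and length, while the rows called over the whole table went from 2303 to 1733, 2993 and 3786. DPM3 and DPM1, subunits of the mannose donor synthase, had 0.52 and 0.16. Of 10 tested proteases that can cleave laminins or their relatives, 3 fell and 1 rose, against 15.4% of all rows called. BMP1, which trims laminin and procollagen chains, had -0.81, the urokinase PLAU -0.75 and the stromelysin MMP3 1.77, from 1.32 ± 0.282 to 4.52 ± 0.688 CPM (SD, n = 5 each). Of 6 hemidesmosome proteins, ITGB4 and the linker PLEC (-0.18) fell, against 7.8% of all rows, and the other 4 did not pass, and the call of PLEC was lost after correction for GC content and length (adjusted p = 0.761, edgeR).

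**Figure D5:**
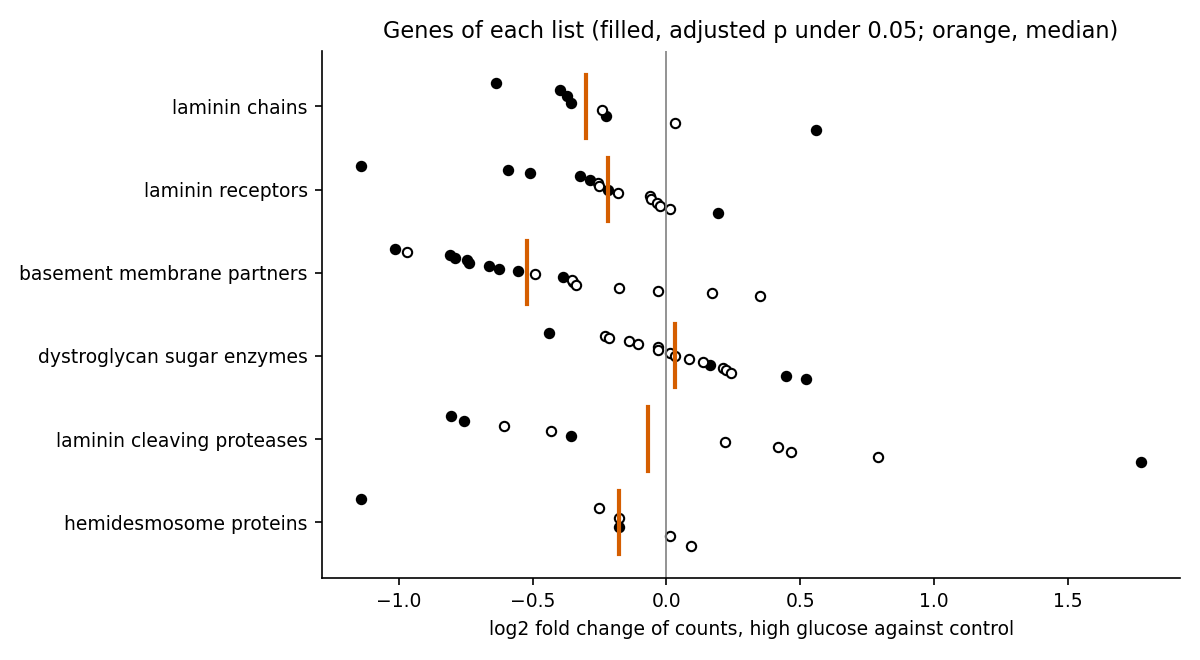
Log2 fold change of HG against control (horizontal axis) for each tested gene of the laminin chains and 5 linked lists, filled where the adjusted p was below 0.05, with the median of each list as an orange line. The basement membrane partners have the lowest median, -0.52, and LAMB3 is the filled point of the laminin chains to the right of 0.

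Markers of cell types, those of the RPE included, were read beside these results. Of 6 tested mesenchymal markers, 5 fell, against 7.8% of all rows, among them COL1A1 (log2 fold change -1.33), TAGLN (-1.30) and PDGFRB (-0.78), and VIM had 0.11 (adjusted p = 0.168, edgeR). Their summed level, most of it VIM, was between 5927 and 6480 CPM in the control group and between 6028 and 7024 CPM in the HG group. Of 15 tested RPE markers, 4 fell, against the same share of all rows, among them KRT18 (-0.68), KRT8 (-0.62) and EZR (-0.24), and 9 passed after correction for GC content and length and likewise without control library 2 and HG_1 together, where 3786 and 4035 rows of the whole table passed. RLBP1 (-0.32, adjusted p = 0.133) and BEST1 (-4.97, adjusted p = 0.0670) were among the RPE markers that did not pass (edgeR). Most of the summed level of the RPE markers was KRT8, KRT18 and EZR. The sum was between 4993 and 5769 CPM in the control group and between 3940 and 4801 CPM in the HG group. It includes BEST1, between 0.577 and 551.5 CPM in the control libraries and between 0.981 and 7.79 CPM in the HG libraries. The part of these markers in the laminin results was not tested. The endothelial marker CDH5 was at 0 in all libraries and PECAM1 at between 0 and 4 counts, and of 3 tested endothelial markers KDR was called (-0.63, adjusted p = 0.0452, edgeR), a call lost in 14 alternatives. The summed levels of the endothelial markers were 9.81 to 11.0 CPM in the control group and 8.55 to 9.98 CPM in the HG group. The leukocyte marker PTPRC was at between 0 and 4 counts, the lysosomal CD68 rose (0.70), and CSF1R, the other of 2 tested immune markers, was at -0.43 (adjusted p = 0.0502, edgeR). The summed level of the immune markers, most of it CD68, was between 60.8 and 88.7 CPM in the control group and between 105.4 and 149.2 CPM in the HG group. Of 4 tested photoreceptor markers PDE6B had an unadjusted p below 0.05 and an adjusted p of 0.0993 (edgeR), at summed levels of 13.7 to 19.1 CPM in the control group and 15.8 to 20.8 CPM in the HG group.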

How the data were processed

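RNA of ARPE-19 cells was measured in 5 control and 5 HG libraries. The authors deposited whole-number read counts per gene, without normalization, and FPKM values, scaled by them for transcript length and depth. The submitters' processing notes name fastp 0.20.1, HISAT2 2.2.1 and GRCh38. The counting program, its annotation and its strand setting are not given in the sources used here. HG libraries are named by column, since the labels do not tie columns to samples within that group. Loci named MSTRG, assembled from reads, held between 1.34% and 1.65% of counts.

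Counts were tested with edgeR 4.0.16 (R 4.3.3, default filter on low counts, TMM, quasi-likelihood test) over 14936 rows with Benjamini-Hochberg adjustment, and called at an adjusted p below 0.05. CPM are counts scaled by the TMM-normalized library size, and log2 CPM for the permutation test used a prior count of 2. As alternatives, the counts were tested in DESeq2 1.42.0 and, in edgeR, with RLE size factors, with library size alone, without the filter and with 10 or more counts required in every library. The FPKM values were tested in limma 3.58.1 as log2(FPKM + 1), as log2(FPKM + 0.1), and after keeping rows whose mean was 1 FPKM or more. The other alternatives were a lowess correction (span 0.3) for GC content and length in the 13538 rows (90.6%) with both values, each library left out, and control library 2 and HG_1 left out together. For levels per length, counts per kilobase were the alternative. CPM by plain library totals was added after seeing the data. The steps were tested on simulated data. Gene positions are from GENCODE release 29 (GRCh38), where at most 0.73% of the 100-base windows of a chain also occur in another gene. The members and the gene lists were chosen with earlier results of these data known. Named genes were all members, the label checks, the 3 called genes with the smallest adjusted p of each list, and any receptor or basement membrane partner called with a fold change above 1.5. ITGA3, DAG1, ITGA6, ITGB1, VIM, CSF1R, PDE6B, LAMB4, LAMC3, the genes that overlap LAMA5 and LAMB1 and the defining markers given by their counts, BEST1 included, fall outside the rule and were named after their values were seen. A few genes that the rule or the lists would name are not reported here. Intervals cover 95%.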

Additional observations from a re-analysis of the deposited data

Results flagged for a closer look

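Of 96 groups of 5 values examined, 10 had a value set well away from the remaining 4, and 7 of the 10 were in control library 2 or HG_1. About 4.8 would be so by chance in independent groups, but these groups were not independent. LAMA1 entered by its CPM and by its share, and LAMC1 by its CPM and in the ratio of the beta chains to it. For LAMA1, where the remaining values were 0, any count would be flagged. In control library 2, NID1 was at 32.0 CPM against 41.4 to 43.6 CPM in the other control libraries, and LAMB2 took 67.2% of the summed beta chains against 60.7 to 62.2%. In HG_1, LAMA4 was at 230.6 CPM against 260.7 to 272.0 CPM in the other HG libraries, and LAMC1 was at 315.8 CPM against 365.5 to 382.4 CPM. In HG_1 the beta chains also summed to 3.53 times LAMC1 in FPKM against 2.73 to 2.93, PLEC was at 680.4 CPM against 625.1 to 628.7 CPM, and CD68 was at 143.4 CPM against 101.6 to 112.8 CPM. In HG_4, SPARC was at 1408 CPM against 1571 to 1612 CPM. LAMA1 was at 0.240 CPM in control library 3, or 0.0499% of the summed alpha chains, against 0 in the other control libraries.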

How the results depend on the processing

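LAMA5, LAMB2, LAMC1 and LAMB3 kept their direction and their call in all 20 alternatives. With each library left out in turn, LAMA5 was between -0.67 and -0.60 on the log2 scale (-0.37 in limma on log2(FPKM + 1), with and without the filter), LAMB2 between -0.44 and -0.37, LAMC1 between -0.41 and -0.31 and LAMB3 between 0.50 and 0.60. LAMA4 lost its call with library size alone (-0.21), no filter (-0.22) and each limma fit (-0.22, -0.22 and -0.22), and was between -0.27 and -0.18 with each library left out. LAMB1 lost its call in the limma fits on log2(FPKM + 1), log2(FPKM + 0.1) and filtered rows (-0.33, -0.34 and -0.33), and was between -0.43 and -0.31 with each library left out. The number of chains lower in HG, 5 in the main test, was therefore 3 in the limma fits, where 2025, 1884 and 1877 rows of the whole table passed against 2303. It was 4 with library size alone or no filter, 6 without control library 2 and HG_1 together, and between 3 and 5 with each library left out, being 3 without control library 1 or control library 5, where 1674 and 1733 rows passed. LAMA2, never called, turned negative in limma on log2(FPKM + 1) (-0.012) and log2(FPKM + 0.1) (-0.059) and without control library 2 and HG_1 together (-0.034), and was between -0.11 and 0.40 with each library left out. Without control library 2 and HG_1 together, LAMA3 passed at -0.22. The number of rows called was 3786 with the GC and length correction and 4035 without control library 2 and HG_1 together, against 2303. Of the 63 tested genes of the 5 linked lists, 26 were called in the main test and 42 without those libraries. The causes were not tested. The dystroglycan enzymes called were between 1 and 7 with each library left out and 11 without control library 2 and HG_1 together. PLEC lost its call in the limma fits and with the GC and length correction (-0.020), KDR lost it in 14 alternatives, DPM1 in 8 and DPM3 in 2. In counts per kilobase LAMA4 took 91.5% of the alpha chains in the control group and 92.5% in the HG group. LAMA1 could not be tested for low counts, and LAMA2 rests on few reads. No paired analysis was possible because the labels letter the HG libraries, so that the numbers of the HG columns could be tied to no sample, and no source links a numbered column to a control library by culture or day.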
